A study of Danio rerio with 13 samples.

Results

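RNA-seq of ZF4 cells kept at 18°C for 30 days (18°C /30d) was compared with RNA-seq of ZF4 cells kept at 28°C, across all genes. The comparison used 6 of the 13 samples of the series, chosen by their labels, with 3 libraries at 28°C and 3 libraries at 18°C /30d. Of 32677 genes in the count table, 19622 (60.0%) had enough reads to be tested. ZF4 is an established fibroblast line from zebrafish embryos. The 28°C cells were the untreated control, and the cold group was grown at 18°C in the same DMEM/F12 medium with fetal bovine serum, with no other treatment. The cells were split and reseeded in the course of the culture, so the cold group went through several passages. The sample labels give no time in culture for the 28°C RNA libraries. Effects of cold and of time in culture thus cannot be told apart here. Another condition, 5 days at that temperature (18°C /5d, 3 RNA libraries), shared the model fit and is given beside the 30-day values where it adds to them. The sources used here do not say whether the RNA libraries of a condition came from separate cultures, so the p-values measure the spread between these libraries, which may be technical.

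Fish cells take the temperature of their surroundings, so a fall in temperature slows enzymes, stiffens membranes and disturbs protein folding. Cells held in the cold for weeks can adjust the amounts of enzymes, chaperones, membrane lipids and RNA-binding proteins, and this slow adjustment is called acclimation. Fibroblasts make and remodel the extracellular matrix, the network of collagens and other proteins around cells, and they respond to secreted factors such as transforming growth factor beta (TGF-β).

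Total counts lay between 37509447 and 44853311 reads in 4 of the 6 libraries and were 22269276 and 21407769 reads in replicate 3 of 28°C and of 18°C /30d. Those libraries carried 7.25% and 7.74% of their counts on 1 gene, zgc:158463, against 0.11% to 0.19% in the others. Replicate 3 also differed from replicates 1 and 2 in expression in both groups. After the condition means were removed, 28°C replicate 3 correlated across genes at 0.67 with cold replicate 3. Its correlations with cold replicates 1 and 2 were -0.35 and -0.56. Beyond this shared difference, replicate 3 at 28°C stood apart from the other 5 libraries. In it, the median level of 52 genes of the G2 and M phases of the cell cycle was 1.52 CPM (counts scaled to library size, after TMM), against 75.9 and 58.5 CPM in replicates 1 and 2 at 28°C and 34.7, 50.7 and 21.8 CPM at 18°C /30d. Keratin 4 (krt4), an epithelial gene, was at 3.87, 8.31 and 171 CPM at 28°C and 0.924, 0.126 and 2.65 CPM at 18°C /30d. All 17 fibroblast markers measured were detected, and they summed to 8171 to 15258 CPM at 28°C and 7726 to 12276 CPM at 18°C /30d, although the vim gene was at 1.15 to 2.64 CPM. Epithelial markers summed to 2065 to 3534 CPM at 28°C and 1457 to 2814 CPM at 18°C /30d. Most of this sum was krt8 (959 to 1857 CPM over both groups) and krt18a.1 (390 to 1336 CPM), with cdh1 at 100 to 258 CPM. The epithelial markers epcam, cldnb and cldne were at no more than 0.256 CPM, krt91 at no more than 0.625 CPM, and krt5 and tp63 at no more than 5.49 CPM. Markers of muscle, endothelium, neural cells and blood summed to at most 77.4 CPM in any library and cdh5 of endothelium was at 0. In bulk RNA, fewer cells of a type and less RNA per cell cannot be told apart.

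After 30 days in the cold 297 genes (1.51% of those tested) differed from 28°C at a Benjamini-Hochberg adjusted p under 0.05 in the edgeR quasi-likelihood test. Of these, 200 were higher (1.02%) and 97 were lower (0.494%). The rises were larger than the falls. The median log2 fold change was 2.0 among the higher genes and -1.53 among the lower genes, and 100 rises but only 26 falls reached 4-fold. In 288 of the 297 genes the 3 libraries at 18°C /30d did not overlap with the 3 at 28°C, while over all genes tested 10.3% were higher and 8.5% lower without overlap. At an unadjusted p under 0.05 there were 3893 genes, and the median log2 fold change over all genes tested was 0.00.

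The number of calls rested on the replicate term and on single libraries. Without the replicate term 8 genes were higher and 4 lower, and without replicate 3 at 28°C 51 were higher and 26 lower, of which 62 were among the 297. Leaving out replicate 1 at 28°C gave 25 higher and 20 lower, leaving out replicate 2 there gave 10 and 6, and leaving out 1 cold library gave between 1 and 9 calls. With DESeq2 1093 genes were higher and 667 lower. Each of the 297 genes kept its sign in all 17 alternatives in which it was tested. These include a 2-fold minimum set on the main fit, which cannot change a sign. In all 297 genes the 3 replicate pairs already shared the direction of the fold. Refits of these libraries could thus hardly change a sign, and the kept signs are no added support. The 12 genes called without the replicate term, named here after their values were seen, were tyrp1b, zgc:194210, a versican-like gene (ENSDARG00000078680), golga7ba, IRAK3, cited4b, psme4a and si:ch211-237i5.4, which rose, and rac3b, adka, lyplal1 and rcn3, which fell.

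**Figure D1:**
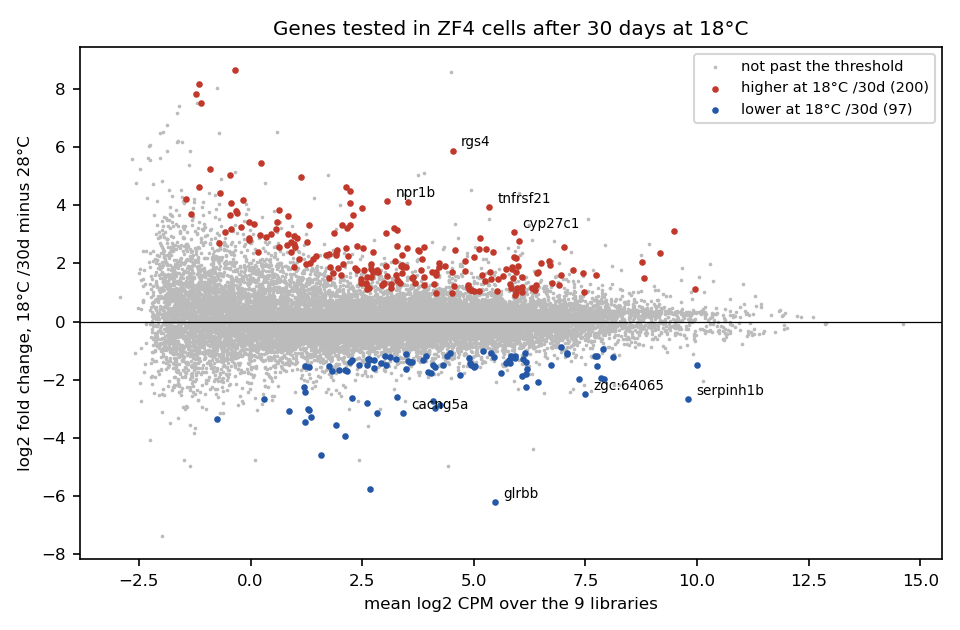
Log2 fold change at 18°C /30d against 28°C (y axis) by mean log2 CPM over the 9 RNA libraries (x axis), 1 point per gene tested. Coloured points are the 200 higher and 97 lower genes past the threshold and grey points the other genes; every coloured point lies at a change of at least 1.86-fold.

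Receptor and signalling genes led the rises among the 148 called genes that had a symbol, no overlap between the groups and a level above the median of those tested. The lack of overlap in these genes was thus a condition of their choice. The largest rise among them was in rgs4, which encodes a protein that shortens signals from G protein-coupled receptors. It was at 0.831, 2.03 and 0.208 CPM at 28°C and 53.4, 91.3 and 22.3 CPM at 18°C /30d, a 59.1-fold rise (log2 fold change 5.89 ± 0.34, adjusted p = 0.00183), and it was called in 14 of the 17 alternatives. The natriuretic peptide receptor gene npr1b was at 0.753, 2.13 and 0.166 CPM at 28°C and 19.6, 36.7 and 2.35 CPM at 18°C /30d (log2 fold change 4.16 ± 0.67, adjusted p = 0.0354). Its lowest cold library was close to the highest 28°C library. The gene for death receptor 6, tnfrsf21, was at 3.84, 11.9 and 0.999 CPM at 28°C and 40.1, 155 and 48.3 CPM at 18°C /30d (log2 fold change 3.93 ± 0.65, adjusted p = 0.0354). The chemokine gene cxcl18b was at 20.1, 23.9 and 7.41 CPM at 28°C and 118, 265 and 29.0 CPM at 18°C /30d (log2 fold change 2.77 ± 0.46, adjusted p = 0.0354). MEGF6, which encodes a protein with epidermal growth factor repeats, rose 5.99-fold (log2 fold change 2.58 ± 0.34, adjusted p = 0.0252). Of these genes, rgs4 and tnfrsf21 were still called without 28°C replicate 3, and npr1b, cxcl18b and MEGF6 were not.

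Transcription factors were also among the 15 largest rises chosen in this way. For sox7, a SOX family gene known from blood vessel development, the levels were 1.71, 3.24 and 0.499 CPM at 28°C and 9.65, 36.1 and 9.09 CPM at 18°C /30d (log2 fold change 3.21 ± 0.52, adjusted p = 0.0354). Levels of snai2, which encodes a repressor of epithelial genes in mesenchymal cells, were 7.06, 6.99 and 14.3 CPM at 28°C and 21.8, 59.6 and 94.6 CPM at 18°C /30d (log2 fold change 2.48 ± 0.41, adjusted p = 0.0354). Further genes of the 15 were the LIM domain gene fhl3b, which rose 5.54-fold, the alpha-kinase gene alpk3a at 6.13-fold, niban1b at 5.91-fold, and apobb.1, an apolipoprotein B gene, at 5.73-fold, with adjusted p between 0.0272 and 0.0408. The calls of alpk3a and niban1b held without 28°C replicate 3, and those of sox7, snai2, fhl3b and apobb.1 did not. A further 4 genes that passed the threshold had no read in any 28°C library. They could enter the test only through reads in cold libraries, so their calls and folds are a description. With a floor of 3 reads per library, arr3a, a cone arrestin gene, was at least 17.9-fold higher, hcst at least 10.8-fold, dnaaf19 at least 7.64-fold and KSR1 at least 7.25-fold. They stayed low in the cold as well, with 30, 35 and 75 reads of arr3a in replicates 1, 2 and 3.

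Among the falls chosen in the same way, ion channel genes and the gene of an oxygen-binding protein were near the head. Outside that choice cldn11a, si:ch211-159i8.4, itgb4, PTX3, ENSDARG00000052289, cacng4a and lyplal1 fell by more than all of these but glrbb. Their log2 fold changes were -5.77, -4.61, -3.93, -3.56, -3.46, -3.35 and -3.30. The glycine receptor beta subunit gene glrbb was at 35.9, 26.9 and 325 CPM at 28°C and 0.924, 0.856 and 1.11 CPM at 18°C /30d, a 74.7-fold fall (log2 fold change -6.22 ± 0.79, adjusted p = 0.0252). Its 28°C libraries varied widely, but all cold libraries lay far below them. The gene of a voltage-dependent calcium channel gamma subunit, cacng5a, was at 17.9, 5.60 and 54.9 CPM at 28°C and 2.01, 1.03 and 3.97 CPM at 18°C /30d (log2 fold change -3.15 ± 0.30, adjusted p = 0.0173). Cytoglobin 2 (cygb2), an oxygen-binding globin, was at 28.7, 16.9 and 76.6 CPM at 28°C and 3.45, 1.89 and 11 CPM at 18°C /30d (log2 fold change -2.98 ± 0.35, adjusted p = 0.0252). In each of these 3 genes 28°C replicate 3 was the highest library, and each was also called without it. The prohibitin 2-like gene PHB2, a mitochondrial inner membrane scaffold gene, was at 52.7, 55.9 and 25.4 CPM at 28°C and 3.73, 9.62 and 5.89 CPM at 18°C /30d (log2 fold change -2.87 ± 0.40, adjusted p = 0.0272). The short stature homeobox gene shox, a developmental transcription factor gene, was at 160.3, 83.5 and 157 CPM at 28°C and 44.9, 22.7 and 41.0 CPM at 18°C /30d (log2 fold change -1.89 ± 0.25, adjusted p = 0.0252). Other members of the 15 largest falls were ABTB3 (6.68-fold), zgc:64065, annotated as a phosphatidylinositol-specific phospholipase (5.60-fold), angpt1, a ligand of the Tie2 receptor of blood vessels (6.11-fold), and mepceb, a small nuclear RNA capping gene (3.44-fold), with adjusted p between 0.0272 and 0.0465. The call of PHB2 held without 28°C replicate 3, and those of shox, ABTB3, zgc:64065, angpt1 and mepceb did not.

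**Figure D2:**
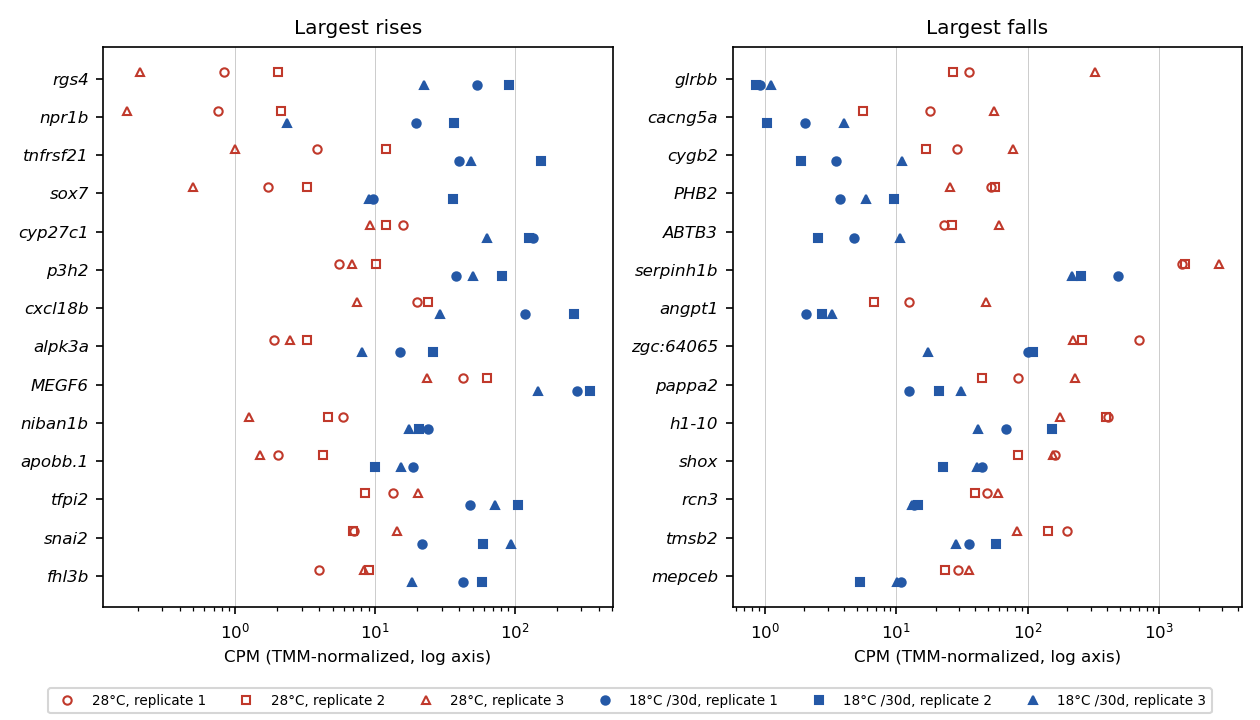
CPM on a log axis (x axis) in each library of 14 of the 15 largest rises and 14 of the 15 largest falls above the median level (y axis, gene symbols), open points for 28°C and filled points for 18°C /30d, with a marker shape per replicate. Genes were chosen for a lack of overlap between open and filled points; rgs4 and glrbb have the largest changes shown, at 59.1-fold and 74.7-fold.

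Ligands of the TGF-β superfamily tended to be higher in the cold. Of 24 tested ligand genes 3 rose and none fell, the median log2 fold change was 0.91, and 50.0% were higher in all 3 replicate pairs, against 22.2% of all genes tested. This family and the other gene families below were grouped after values were seen, so their counts are descriptions. The gene of TGF-β1, tgfb1a, was at 25.9, 22.6 and 54.4 CPM at 28°C and 75.9, 121 and 273 CPM at 18°C /30d (log2 fold change 2.09 ± 0.27, adjusted p = 0.0252). Inhibin beta B (inhbb), the subunit of activin B, was at 14.9, 24.0 and 16.5 CPM at 28°C and 118, 104 and 48.6 CPM at 18°C /30d (log2 fold change 2.18 ± 0.31, adjusted p = 0.0272). Both were called without 28°C replicate 3 too. The Nodal antagonist lft2 was at 0 to 0.0472 CPM at 28°C and 0.352 to 2.35 CPM at 18°C /30d (log2 fold change 5.06 ± 0.94, adjusted p = 0.0461), all very low levels. It could not have entered the test without cold libraries, so its call is a description. The ligand tgfb2 was at 12.9, 22.4 and 47.7 CPM at 28°C and 22.8, 42.7 and 92.4 CPM at 18°C /30d and missed the threshold (log2 fold change 0.90 ± 0.19, adjusted p = 0.0598), and tgfb1b was at a log2 fold change of -0.39 (adjusted p = 0.686).

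Some genes that modify these or Wnt signals also rose. The follistatin-like gene fstl1a, a secreted glycoprotein gene, was at 8.05, 4.2 and 15.3 CPM at 28°C and 26.8, 39.4 and 34.0 CPM at 18°C /30d (log2 fold change 2.0 ± 0.37, adjusted p = 0.0461). The Smad gene smad10b rose 3.30-fold (log2 fold change 1.72 ± 0.31, adjusted p = 0.0414). The Wnt antagonist wif1 was at 12.8, 30.6 and 8.91 CPM at 28°C and 60.3, 112 and 58.2 CPM at 18°C /30d (log2 fold change 2.22 ± 0.34, adjusted p = 0.0321). In these 3 genes the groups did not overlap, but none of the 3 was called without 28°C replicate 3. The TGF-beta signaling pathway as annotated in the table held 96 tested genes, with 3 higher (lft2, inhbb and tgfb1a), 1 lower and a median log2 fold change of 0.05, and 30.2% were higher and 10.4% lower in all 3 replicate pairs, against 22.2% and 18.6% of all genes tested. The Wnt signaling pathway held 183 tested genes, of which only wif1 was called.

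Few matrix genes were called. Of 89 extracellular matrix genes 3 rose and 2 fell, with a median log2 fold change of 0.33. None of the 3 rises (mmp9, col12a1a and col8a1a) was called without 28°C replicate 3, and the list then had 1 rise and 1 fall (serpinh1b) with a median of 0.46. Matrix metalloproteinase 9 (mmp9), a gelatinase, was at 332, 119 and 129 CPM at 28°C and 1059, 797 and 865 CPM at 18°C /30d (log2 fold change 2.35 ± 0.32, adjusted p = 0.0272). Collagen XII (col12a1a), a fibril-associated collagen, was at 4.44, 5.36 and 29.5 CPM at 28°C and 17.4, 18.0 and 84.4 CPM at 18°C /30d (log2 fold change 1.73 ± 0.32, adjusted p = 0.0461). Collagen VIII (col8a1a), a short-chain collagen, was at 0.493, 0.189 and 0.166 CPM at 28°C and 2.23, 4.88 and 1.75 CPM at 18°C /30d (log2 fold change 3.44 ± 0.65, adjusted p = 0.0471). For col12a1a the lowest cold libraries were below 28°C replicate 3, so the groups overlapped while each replicate pair rose. The fibrillar collagen genes did not pass the threshold: col1a1a was at 3258, 2154 and 3084 CPM at 28°C and 2061, 1871 and 2637 CPM at 18°C /30d (log2 fold change -0.36 ± 0.19, adjusted p = 0.328), and col1a2 had a log2 fold change of -0.55 ± 0.24 (adjusted p = 0.263). Fibronectin (fn1a), an adhesive glycoprotein, was at 378, 239 and 167 CPM at 28°C and 559, 636 and 436 CPM at 18°C /30d (log2 fold change 1.06 ± 0.38, adjusted p = 0.181).

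Genes for collagen folding moved in both directions. The collagen chaperone serpinh1b (Hsp47) was at 1477, 1579 and 2838 CPM at 28°C and 489, 256 and 218 CPM at 18°C /30d, a 6.38-fold fall (log2 fold change -2.67 ± 0.38, adjusted p = 0.0279). Lysyl hydroxylase 1 (plod1a), which prepares collagen lysines for crosslinks, was at 85.0, 102 and 72.8 CPM at 28°C and 32.8, 45.1 and 36.7 CPM at 18°C /30d (log2 fold change -1.19 ± 0.21, adjusted p = 0.0408). In contrast, prolyl 3-hydroxylase 2 (p3h2) was at 5.56, 10.1 and 6.83 CPM at 28°C and 37.8, 81.6 and 50.4 CPM at 18°C /30d (log2 fold change 2.89 ± 0.26, adjusted p = 0.0155). Other secreted or matrix-bound proteins fell too. The serine protease HTRA3, an inhibitor of TGF-β signalling in mouse, was at 192, 179.5 and 167 CPM at 28°C and 84.9, 60.7 and 51.1 CPM at 18°C /30d (log2 fold change -1.49 ± 0.24, adjusted p = 0.0354). The pappalysin gene pappa2, a protease of insulin-like growth factor binding proteins, fell 4.8-fold (log2 fold change -2.26 ± 0.35, adjusted p = 0.034), adam19a fell 2.67-fold (log2 fold change -1.41 ± 0.22, adjusted p = 0.0321), and srpx and pdgfrl fell 2.10-fold and 2.14-fold. The collagen triple helix repeat gene cthrc1a and the Kunitz inhibitor tfpi2, which blocks matrix-degrading proteases, rose 2.10-fold and 5.65-fold. Integrin beta 4, of contacts with the matrix, fell (itgb4, log2 fold change -3.93 ± 0.59, adjusted p = 0.0319). Claudin 11a, of contacts between cells, fell as well (cldn11a, log2 fold change -5.77 ± 0.68, adjusted p = 0.0252). Both are genes of epithelial contacts and were highest in 28°C replicate 3. Without that library cldn11a was still called and itgb4 was not.

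Cytochrome P450 enzymes, which oxidise lipids, steroids and foreign compounds, were shifted upward as a family. Of 48 tested genes 5 rose and none fell, the median log2 fold change was 0.77, and 45.8% were higher in all 3 replicate pairs, against 22.2% of all genes. Among the risen genes cyp27c1, which encodes a retinol desaturase known from zebrafish and bullfrog, had the highest level per gene length at 18°C /30d, a mean of 20.1 RPKM against 0.42 to 6.57 RPKM for the others. It was at 15.8, 12 and 9.16 CPM at 28°C and 135, 126 and 62.9 CPM at 18°C /30d (log2 fold change 3.09 ± 0.23, adjusted p = 0.00619). The gene cyp2ad3 was at 9.01, 17.1 and 10.7 CPM at 28°C and 90.6, 48.2 and 59.1 CPM at 18°C /30d (log2 fold change 2.41 ± 0.36, adjusted p = 0.0317). The other risen genes were cyp1b1 and cyp1c1, known targets of the aryl hydrocarbon receptor, and cyp2p6. Levels of cyp1b1 were 0.104, 0.496 and 0.707 CPM at 28°C and 1.25, 6.12 and 15.9 CPM at 18°C /30d (log2 fold change 3.90 ± 0.68, adjusted p = 0.0408). Levels of cyp1c1 were 0.156, 0.0472 and 0.250 CPM at 28°C and 1.69, 1.49 and 11.6 CPM at 18°C /30d (log2 fold change 4.63 ± 0.83, adjusted p = 0.0429). At these 28°C levels cyp1c1 could not have entered the test without cold libraries, so its call is a description. The related cyp1c2 had a log2 fold change of 3.59 and missed the threshold (adjusted p = 0.0846). Without 28°C replicate 3 the family median was 0.91 and 2 members were called, cyp27c1 and cyp2p6.

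A pair of genes of lipid mediator synthesis, picked after values were seen, rose at low levels. The leukotriene C4 synthase gene LTC4S was at 0.467, 0.165 and 0.166 CPM at 28°C and 1.90, 1.11 and 4.01 CPM at 18°C /30d (log2 fold change 2.98 ± 0.53, adjusted p = 0.0408). The gene ptgdsb.2, of the lipocalin type of prostaglandin D2 synthases, was at 0.493, 0.756 and 0.166 CPM at 28°C and 5.57, 4.86 and 2.43 CPM at 18°C /30d (log2 fold change 3.32 ± 0.42, adjusted p = 0.0252). Both stayed at a few CPM. Arachidonic acid metabolism (24 tested genes) and linoleic acid metabolism (14) had the highest medians of the 221 annotated pathways with at least 10 tested genes, 0.68 in both, yet only LTC4S was called in the first and no gene in the second.

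Redox genes were called in both directions, but several of these calls were lost without 28°C replicate 3. Methionine sulfoxide reductases repair oxidised methionine in proteins, and 2 of 5 tested genes rose: msraa was at 2.96, 4.91 and 4.0 CPM at 28°C and 14.8, 17.1 and 12.6 CPM at 18°C /30d (log2 fold change 1.95 ± 0.26, adjusted p = 0.0252), and msrb3 was at 13.9, 13.2 and 25.1 CPM at 28°C and 32.6, 64.3 and 62.6 CPM at 18°C /30d (log2 fold change 1.60 ± 0.25, adjusted p = 0.034). The NADPH oxidase subunit gene cybb, whose enzyme produces superoxide, was at 2.34, 2.93 and 1.58 CPM at 28°C and 7.18, 9.77 and 6.87 CPM at 18°C /30d (log2 fold change 1.83 ± 0.30, adjusted p = 0.0354). None of these 3 genes overlapped between the groups. In the list of 58 antioxidant genes 1 rose (selenbp1) and 2 fell, with a median log2 fold change of 0.10. The falls were gpx8, a glutathione peroxidase of the endoplasmic reticulum, at 11.7, 10.6 and 14.4 CPM at 28°C and 4.98, 3.78 and 4.78 CPM at 18°C /30d (log2 fold change -1.44 ± 0.26, adjusted p = 0.0414), and the glutathione transferase gene gstm.1, at 28.0, 22.2 and 16.6 CPM at 28°C and 10.3, 6.92 and 8.96 CPM at 18°C /30d (log2 fold change -1.33 ± 0.23, adjusted p = 0.0408). Among 18 genes that respond to oxidative stress by GO annotation 2 were higher and 1 lower, and these were msraa, msrb3 and gpx8. Genes of cytoglobins fell together: cygb2 and a cytoglobin-2-like gene (ENSDARG00000052289) were lower, with log2 fold changes of -2.98 and -3.46. Without 28°C replicate 3, msraa, selenbp1 and cygb2 were still called, and msrb3, cybb, gpx8, gstm.1 and ENSDARG00000052289 were not. The antioxidant list then had 1 rise and no fall.

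Aldehyde dehydrogenases, which turn reactive aldehydes into acids, were shifted downward. Of 22 tested genes 6 fell and none rose, the median log2 fold change was -0.53, and 54.5% were lower in all 3 replicate pairs, against 18.6% of all genes. The mitochondrial enzyme gene aldh2.2 was at 63.8, 58.7 and 45.1 CPM at 28°C and 22.9, 18.5 and 16.2 CPM at 18°C /30d (log2 fold change -1.54 ± 0.19, adjusted p = 0.0252). A pair of near copies of it, ENSDARG00000037094 and ENSDARG00000090766, fell 2.94-fold and 2.45-fold, and reads may be shared among the 3. Methylmalonate-semialdehyde dehydrogenase (aldh6a1), of valine breakdown, was at 49.5, 51.1 and 37.3 CPM at 28°C and 21.2, 18.28 and 17.4 CPM at 18°C /30d (log2 fold change -1.26 ± 0.21, adjusted p = 0.0354). The folate enzyme 10-formyltetrahydrofolate dehydrogenase was represented by a pair of gene models. ALDH1L1 was at 157, 102 and 163 CPM at 28°C and 44.2, 39.0 and 50.8 CPM at 18°C /30d (log2 fold change -1.64 ± 0.19, adjusted p = 0.0252), and aldh1l1 fell 3.28-fold (log2 fold change -1.71 ± 0.30, adjusted p = 0.0408). No cold library of these genes reached the lowest 28°C library. Without 28°C replicate 3 the family median was -0.50 and 3 members were called.

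**Figure D3:**
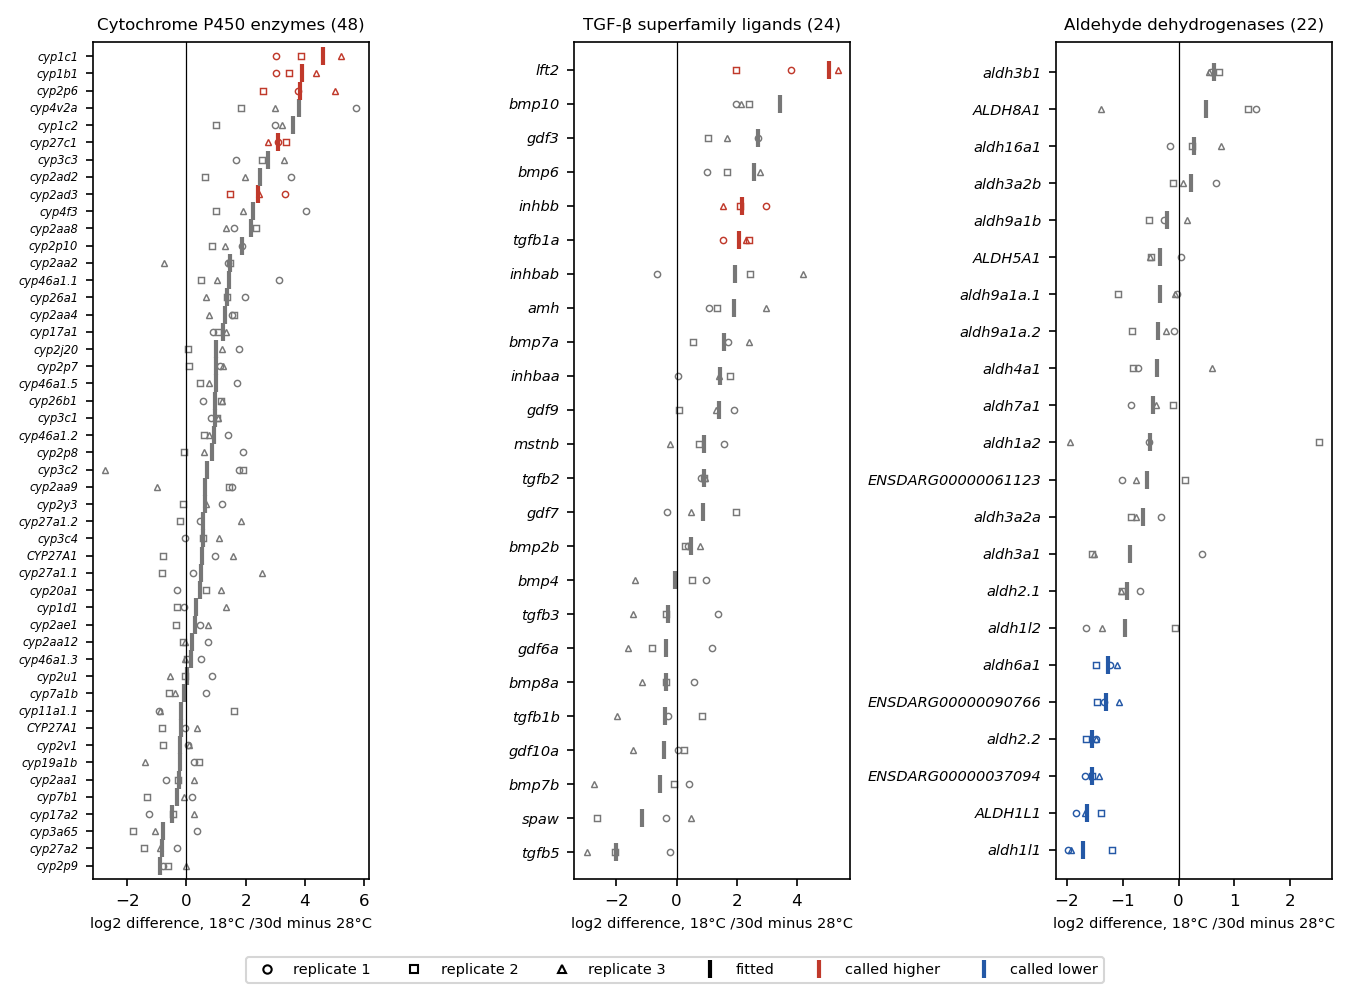
Log2 difference at 18°C /30d against 28°C (x axis) of each tested cytochrome P450 gene (48), TGF-β superfamily ligand (24) and aldehyde dehydrogenase gene (22), with a marker per replicate pair and a bar for the fitted value, coloured where called; replicate differences carry a prior count of 2, so at low counts they can lie nearer 0 than the fit. Cytochrome P450 genes and ligands lie mostly to the right of 0 (medians 0.77 and 0.91) and aldehyde dehydrogenases mostly to the left (median -0.53).

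The same enzymes set the counts of several catabolic pathways. Valine, leucine and isoleucine degradation had 4 lower genes of 50, and these were aldh6a1 and the 3 aldh2-type genes. The latter made up all 3 lower genes in histidine metabolism, in fatty acid metabolism and in glycolysis and gluconeogenesis. One-carbon genes moved in both directions. In the list of 39 folate and one-carbon genes 1 rose (GCH1) and 2 fell (mat2aa and aldh1l1), with a median of -0.12. Without 28°C replicate 3 no gene of the list was called and its median was -0.32. The gene model ALDH1L1 was not in this list, and it was still called without that library. Methionine adenosyltransferase 2 (mat2aa), which makes the methyl donor S-adenosylmethionine, was at 292, 235 and 542 CPM at 28°C and 105, 142 and 208 CPM at 18°C /30d (log2 fold change -1.19 ± 0.22, adjusted p = 0.044). Adenosine kinase (adka), which clears the adenosine that methylation leaves, was at 28.5, 26.4 and 34.0 CPM at 28°C and 8.43, 8.26 and 10.0 CPM at 18°C /30d (log2 fold change -1.73 ± 0.19, adjusted p = 0.0229). Glutamate dehydrogenase (glud1a) was at 231, 212 and 217 CPM at 28°C and 106, 83.1 and 112 CPM at 18°C /30d (log2 fold change -1.14 ± 0.19, adjusted p = 0.0354). For adka the libraries within each group lay close together and the groups far apart. Sarcosine dehydrogenase (SARDH), which feeds one-carbon units from sarcosine into folate, was at 1.54 to 2.47 CPM at 28°C and 4.78 to 10.5 CPM at 18°C /30d (log2 fold change 1.76 ± 0.28, adjusted p = 0.0354), and phenylalanine hydroxylase (pah), which makes tyrosine, was at 18.0, 4.61 and 25.0 CPM at 28°C and 47.7, 48.2 and 89.99 CPM at 18°C /30d (log2 fold change 2.23 ± 0.37, adjusted p = 0.0366).

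Genes of mitochondrial ATP production had few calls and a median slightly below 0. Of 131 tested oxidative phosphorylation genes 2 fell and none rose, and the median log2 fold change was -0.28, with -0.75, 0.02 and -0.01 in replicate pairs 1, 2 and 3. The mitochondrially encoded cytochrome b gene MT-CYB was at 1553, 1871 and 1863 CPM at 28°C and 630.4, 937 and 428 CPM at 18°C /30d (log2 fold change -1.50 ± 0.26, adjusted p = 0.0408). The other fall was lhpp, a histidine phosphatase gene annotated to this pathway (log2 fold change -1.34 ± 0.23, adjusted p = 0.0401). All 11 mitochondrially encoded protein genes had negative log2 fold changes, from -1.50 to -0.22, and only MT-CYB passed the threshold. Some nuclear genes of mitochondrial assembly fell: taco1, a translation activator of cytochrome c oxidase subunit 1, was at 115, 87.0 and 69.2 CPM at 28°C and 32.9, 42.3 and 25.3 CPM at 18°C /30d (log2 fold change -1.44 ± 0.25, adjusted p = 0.0392), samm50l of the outer membrane fell 2.27-fold and sfxn2 fell 2.61-fold. A near copy of taco1, ENSDARG00000089194, fell 2.82-fold. Ribosomal protein genes (80 in the pathway) had no call and a median of -0.26, with -0.62, 0.01 and -0.17 in the replicate pairs. The median of replicate pair 2 thus did not share the shift. Of these genes 40.0% were lower and 1.25% higher in all 3 replicate pairs, against 18.6% and 22.2% of all genes tested.

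Some fatty acid import and storage genes rose, although desaturation genes did not pass the threshold. Carnitine palmitoyltransferase 1 brings fatty acids into mitochondria, and 2 of its genes rose: cpt1ab was at 19.2, 22.6 and 17.9 CPM at 28°C and 41.7, 61.7 and 67.4 CPM at 18°C /30d (log2 fold change 1.46 ± 0.27, adjusted p = 0.0457), and cpt1a2b was at 3.66, 3.45 and 7.32 CPM at 28°C and 12.8, 17.2 and 21.6 CPM at 18°C /30d (log2 fold change 1.89 ± 0.24, adjusted p = 0.0252). The acyl-CoA synthetase gene acsl2 was at 1.32, 1.49 and 0.624 CPM at 28°C and 8.97, 4.86 and 5.46 CPM at 18°C /30d (log2 fold change 2.53 ± 0.35, adjusted p = 0.0272). The lipid droplet coat gene plin2 rose 2.80-fold (log2 fold change 1.49 ± 0.26, adjusted p = 0.0408), and apolipoprotein E (apoeb) rose 6.38-fold (log2 fold change 2.67 ± 0.44, adjusted p = 0.0354), the latter at under 5 CPM. No cold library of cpt1ab, cpt1a2b, acsl2 or plin2 was as low as a 28°C library. However, cpt1a2b was still called without 28°C replicate 3, and cpt1ab, acsl2, plin2 and apoeb were not. Of 5 tested carnitine palmitoyltransferase genes, 2 were higher and 2 lower in all 3 replicate pairs. None of the 31 genes of fatty acid synthesis, desaturation and elongation was called (median 0.27). The fatty acid desaturase gene fads2 was at 978, 488 and 108 CPM at 28°C and 292, 214 and 209 CPM at 18°C /30d (log2 fold change -0.76 ± 0.47, adjusted p = 0.405). None of 33 cholesterol synthesis genes was called either, with a median of -0.20, and in replicate pairs 1, 2 and 3 of -1.04, -0.42 and 1.05. Without 28°C replicate 3, where hmgcs1 of this pathway was at 71.6 CPM against 982 and 901 CPM, the median was -0.70 and 2 genes fell.

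Several light- and clock-linked genes rose. Of 11 cryptochrome and photolyase genes 3 rose and none fell, with a median log2 fold change of 1.64. The median was 1.07 without 28°C replicate 3, and 2 were called, cry1a and cry-dash. The clock repressor cry1a was at 22.4, 13.0 and 30.3 CPM at 28°C and 65.0, 69.6 and 93.8 CPM at 18°C /30d (log2 fold change 1.87 ± 0.24, adjusted p = 0.0252). The cry-dash gene was at 2.23, 2.22 and 4.87 CPM at 28°C and 7.26, 14.4 and 17.2 CPM at 18°C /30d (log2 fold change 2.07 ± 0.26, adjusted p = 0.0252). A (6-4) photolyase-like gene, si:ch1073-390k14.1, was at 0.545, 1.04 and 1.37 CPM at 28°C and 4.35, 3.1 and 7.59 CPM at 18°C /30d (log2 fold change 2.30 ± 0.35, adjusted p = 0.0319). All 3 were without overlap. These 3 were also the only called genes among 88 tested DNA repair genes by GO annotation. In the list of 42 circadian clock genes 2 rose (cry1a and cry-dash), with a median of 0.41. The clock gene per2, known in zebrafish for induction by light, was at 42.5, 25.1 and 33.0 CPM at 28°C and 75.6, 140.1 and 261 CPM at 18°C /30d and missed the threshold (log2 fold change 2.09 ± 0.59, adjusted p = 0.113), and per3 had a log2 fold change of 1.71 ± 0.74 (adjusted p = 0.251). The sources used here do not give the time of day or the light at harvest, and their part in these values was not tested. The repair gene ercc6, of transcription-coupled repair, was at 16.3, 20.8 and 21.3 CPM at 28°C and 57.4, 38.2 and 67.9 CPM at 18°C /30d (log2 fold change 1.45 ± 0.25, adjusted p = 0.0399).

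Some chromatin and nuclear envelope genes fell. Of 32 linker histone, heterochromatin and nuclear lamina genes 5 fell and none rose, with a median log2 fold change of -0.21. The linker histone h1-10 was at 408, 390.4 and 177 CPM at 28°C and 67.7, 152 and 41.6 CPM at 18°C /30d (log2 fold change -1.98 ± 0.28, adjusted p = 0.0272). Heterochromatin protein 1 beta (cbx1a), which binds methylated histone H3, was at 106, 88.7 and 59.7 CPM at 28°C and 39.0, 33.8 and 27.0 CPM at 18°C /30d (log2 fold change -1.33 ± 0.18, adjusted p = 0.0252). The lamin B receptor gene lbr was at 101, 141 and 79.6 CPM at 28°C and 50.2, 51.0 and 30.9 CPM at 18°C /30d (log2 fold change -1.28 ± 0.19, adjusted p = 0.0305). Thymopoietin (tmpoa), a lamina protein gene, fell 2.32-fold, and hmgn7, a nucleosome-binding protein gene, fell 2.31-fold. None of the 5 overlapped, and without 28°C replicate 3 cbx1a and hmgn7 were called. The histone lysine methyltransferase gene setd7 was at 29.6, 30.4 and 29.2 CPM at 28°C and 9.65, 11.5 and 10.4 CPM at 18°C /30d (log2 fold change -1.50 ± 0.21, adjusted p = 0.0272). No member of the 21 genes of DNA methylation and its removal was called, with a median of -0.46. The medians in replicate pairs 1, 2 and 3 were -0.02, -0.37 and -0.16, so the fitted median lay below that of each pair. The de novo methyltransferase gene dnmt3aa had a log2 fold change of 0.79 ± 0.28 (adjusted p = 0.171), and dnmt3bb.1 had -0.83 ± 0.26 (adjusted p = 0.138).

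Some genes known from neurons for vesicle release rose at low levels. Of 63 such genes 8 rose and 1 fell, and the median log2 fold change was 0.39. The active zone gene pcloa was at 0.493, 0.945 and 0.749 CPM at 28°C and 9.05, 2.69 and 11.3 CPM at 18°C /30d (log2 fold change 3.23 ± 0.53, adjusted p = 0.0354). The vesicle priming gene unc13a was at 0.104, 0.283 and 0.250 CPM at 28°C and 1.79, 1.46 and 1.45 CPM at 18°C /30d (log2 fold change 2.91 ± 0.47, adjusted p = 0.0354). The vesicle fusion gene NAPB was at 0.467, 1.58 and 1.66 CPM at 28°C and 8.46, 6.45 and 17.5 CPM at 18°C /30d (log2 fold change 3.06 ± 0.45, adjusted p = 0.0305), and sybu, which links syntaxin cargo to kinesin, was at 0.364, 0.449 and 1.33 CPM at 28°C and 6.20, 2.97 and 7.81 CPM at 18°C /30d (log2 fold change 3.06 ± 0.38, adjusted p = 0.0252). In these 4 genes every cold library was above every 28°C library. The small GTPase rab3aa rose 14.09-fold, beta-synuclein (sncb) 9.48-fold, syntaphilin (snphb) 3.67-fold and syngr2b 3.15-fold, with overlap between the groups for sncb, and the calcium sensor SYT3 fell 2.60-fold. The neural marker list summed to 43.2 to 59.4 CPM at 28°C and 37.2 to 77.4 CPM at 18°C /30d with no gene called. Without 28°C replicate 3 only sybu of them was called. Of 20 tested subunit genes of voltage-dependent calcium channels 3 fell (cacng4a, cacng5a and cacnb4b) and none rose, while 12 lay above 0 and the median was 0.24. Only cacng5a of them was called without 28°C replicate 3.

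Pigment cell markers were at low levels, and 1 of them rose. The list summed to 20.2 to 30.0 CPM at 28°C and 30.2 to 81.8 CPM at 18°C /30d, and 1 of 4 tested members passed the threshold. This was tyrp1b, an enzyme gene of melanin synthesis, at 0.130, 0.189 and 0.166 CPM at 28°C and 3.45, 5.69 and 7.47 CPM at 18°C /30d (log2 fold change 4.98 ± 0.38, adjusted p = 0.00619). The groups lay far apart, and tyrp1b was called in 13 of the 17 alternatives. At its 28°C levels it could not have entered the test without cold libraries, so its call and separation are a description. Dopachrome tautomerase (DCT), which acts in the same synthesis, was at 22.9, 18.8 and 28.8 CPM at 28°C and 61.9, 22.7 and 69.7 CPM at 18°C /30d (log2 fold change 0.99 ± 0.31, adjusted p = 0.133), with overlap, and made up most of the sum. The neural crest genes sox10 and foxd3 were at 0 in all 6 libraries, and tyr, the gene of tyrosinase, was at no more than 0.171 CPM.

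Few chaperone genes were called. Of 44 heat shock chaperone genes none rose and 2 fell, serpinh1b and fkbp4. The median was 0.27, 32 of the 44 lay above 0, and 31.8% were higher and 6.82% lower in all 3 replicate pairs, against 22.2% and 18.6% of all genes tested. The median was 0.04 without 28°C replicate 3. The Hsp90 co-chaperone gene fkbp4 was at 169, 174 and 144 CPM at 28°C and 90.1, 87.7 and 83.2 CPM at 18°C /30d (log2 fold change -0.89 ± 0.17, adjusted p = 0.0471). The inducible hsp70.1 was at 23.3, 23.6 and 11.8 CPM at 28°C and 46.3, 306 and 129 CPM at 18°C /30d, with wide differences between cold libraries (log2 fold change 2.76 ± 0.83, adjusted p = 0.128), and the constitutive hspa8 was at 709, 641 and 512 CPM at 28°C and 528, 1058 and 877 CPM at 18°C /30d (log2 fold change 0.32 ± 0.32, adjusted p = 0.611). In the unfolded protein response list of 47 genes 1 rose (dnajb9b, log2 fold change 1.59 ± 0.29, adjusted p = 0.0461) and 1 fell, rcn3, a calcium-binding protein gene of the secretory pathway. For rcn3 the levels were 48.9, 39.5 and 59.7 CPM at 28°C and 13.6, 14.7 and 13.3 CPM at 18°C /30d (log2 fold change -1.83 ± 0.23, adjusted p = 0.0252). The oxidase gene ero1b, which forms disulfide bonds in secreted proteins, rose 2.26-fold (log2 fold change 1.18 ± 0.22, adjusted p = 0.0465). The lectin gene os9, which sorts misfolded glycoproteins for degradation, was at 234, 183 and 233 CPM at 28°C and 104, 96.1 and 105 CPM at 18°C /30d (log2 fold change -1.09 ± 0.17, adjusted p = 0.0354).

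Protein degradation genes rose at separate points. The proteasome activator PA200 was the only called part of the proteasome pathway, where 3 of 53 genes rose: psme4a was at 2.70, 2.98 and 3.62 CPM at 28°C and 10.8, 12 and 12 CPM at 18°C /30d (log2 fold change 1.91 ± 0.21, adjusted p = 0.0229), PSME4 rose 3.54-fold and ENSDARG00000088684 rose 6.49-fold. The 3 are near copies, and reads may be shared among them. Within a group the psme4a libraries differed by little, and the groups were far apart. In the lysosome pathway 3 of 133 genes rose, with a median of 0.25: cathepsin F (ctsf, log2 fold change 1.19 ± 0.21, adjusted p = 0.0408), napsa (log2 fold change 1.05 ± 0.18, adjusted p = 0.0408), annotated as a cathepsin D, and an AP-3 complex subunit gene. The subunits of the vacuolar proton pump, which acidifies lysosomes, had a median of 0.50 over 28 genes with no call. In replicate pairs 1, 2 and 3 it was 0.01, 0.58 and 0.80. Of the 28 genes 42.9% were higher in all 3 replicate pairs, against 22.2% of all genes tested.

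Cold-inducible RNA-binding protein genes, which rise on cooling in many vertebrate cells, were not called after 30 days in the main edgeR fit. The gene cirbpa was at 972, 969 and 569 CPM at 28°C and 931, 1576 and 776 CPM at 18°C /30d (log2 fold change 0.36 ± 0.24, adjusted p = 0.455). The gene cirbpb was at 2734, 2259.9 and 713 CPM at 28°C and 2208, 3724 and 1821 CPM at 18°C /30d (log2 fold change 0.53 ± 0.35, adjusted p = 0.444), and ybx1, of the cold-shock domain family, was at 1939.9, 1635 and 2279 CPM at 28°C and 1391, 1652 and 1579 CPM at 18°C /30d (log2 fold change -0.33 ± 0.20, adjusted p = 0.4). Each group overlapped with the other in all 3 genes. Their 9-gene list had a median of 0.27, which was -0.05 without 28°C replicate 3 and 0.02 without replicate 3 of all conditions. Log2 fold changes in the list ran from -0.80 to 4.25. Leaving out replicate 3 of all conditions called 1 gene of the list higher, and so did testing without the filter on low counts.

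Cell cycle genes could not be read without regard to 28°C replicate 3. None of 51 genes of the G1 and S phases and none of 52 genes of the G2 and M phases was called. For the latter the median log2 differences in replicate pairs 1, 2 and 3 were -1.13, -0.05 and 3.95, and the fitted median was 0.11. Without 28°C replicate 3 it was -0.69 with no call, and that of the G1 and S genes was -0.62 with no call. Cyclin B1 (ccnb1), which drives entry into mitosis, was at 294, 150.2 and 1.79 CPM at 28°C and 89.9, 143 and 52.5 CPM at 18°C /30d (log2 fold change -0.06 ± 1.11, adjusted p = 0.98). Apart from 28°C replicate 3, for ccnb1 the cold libraries lay below the 28°C libraries. Among 35 cell cycle inhibitors and growth arrest genes only btg2, an antiproliferative gene, rose. It was at 0.961, 1.70 and 1.83 CPM at 28°C and 2.53, 12.6 and 17.6 CPM at 18°C /30d (log2 fold change 2.54 ± 0.45, adjusted p = 0.0408), with cold replicate 1 well below the other cold libraries. The Hif-linked regulator cited4b, an inhibitor of p300 binding, was the only call of 27 HIF and hypoxia genes and was at 19.5, 18.33 and 14.3 CPM at 28°C and 46.8, 67.7 and 56.7 CPM at 18°C /30d (log2 fold change 1.71 ± 0.22, adjusted p = 0.0252).

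**Figure D4:**
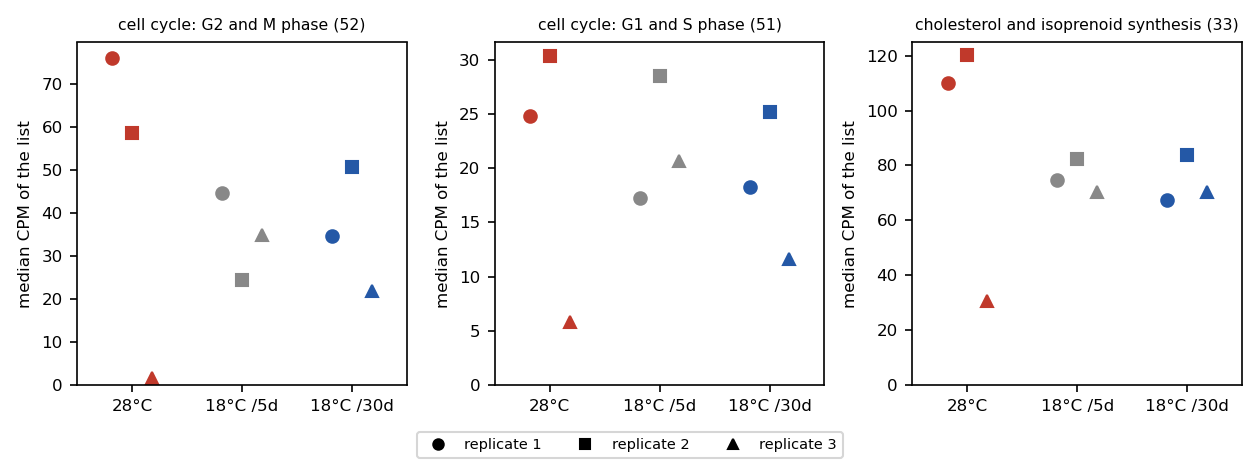
Median CPM of gene lists (y axis, from 0) in each of the 9 RNA libraries by condition (x axis), with a marker per replicate. For the G2 and M phase list 28°C replicate 3 lies at 1.52 CPM, below the other 8 libraries, and the cold libraries lie within or below the range of the other 28°C libraries.

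Over the table's annotation the changes were spread thinly. The counts below stand against shares over all genes tested of 1.02% higher and 0.494% lower. Of 73 listed pathways 31 had no called gene, and the medians lay between -0.31 and 0.68. In 17 of them the medians of all 3 replicate pairs were above 0 and in 6 below 0. Among GO categories 26 of 53 had no called gene, with medians between -0.34 and 0.57. The category with most calls was oxidation-reduction process, with 14 higher and 9 lower genes of 432 and a median of 0.06. Its higher genes included the 5 cytochrome P450 genes, tyrp1b, pah, p3h2 and the methionine sulfoxide reductases, and its lower genes the aldehyde dehydrogenases, gpx8 and plod1a. Growth factor activity had the highest median of the listed GO categories (0.57), with 3 higher genes of 53, the same ligands lft2, inhbb and tgfb1a. Calcium ion binding had 6 higher and 4 lower genes of 530, and proteolysis 6 higher and 5 lower of 341. Translation (130 genes), tRNA aminoacylation (39) and DNA replication (52) had no call, with medians of -0.26, -0.23 and -0.23.

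**Figure D5:**
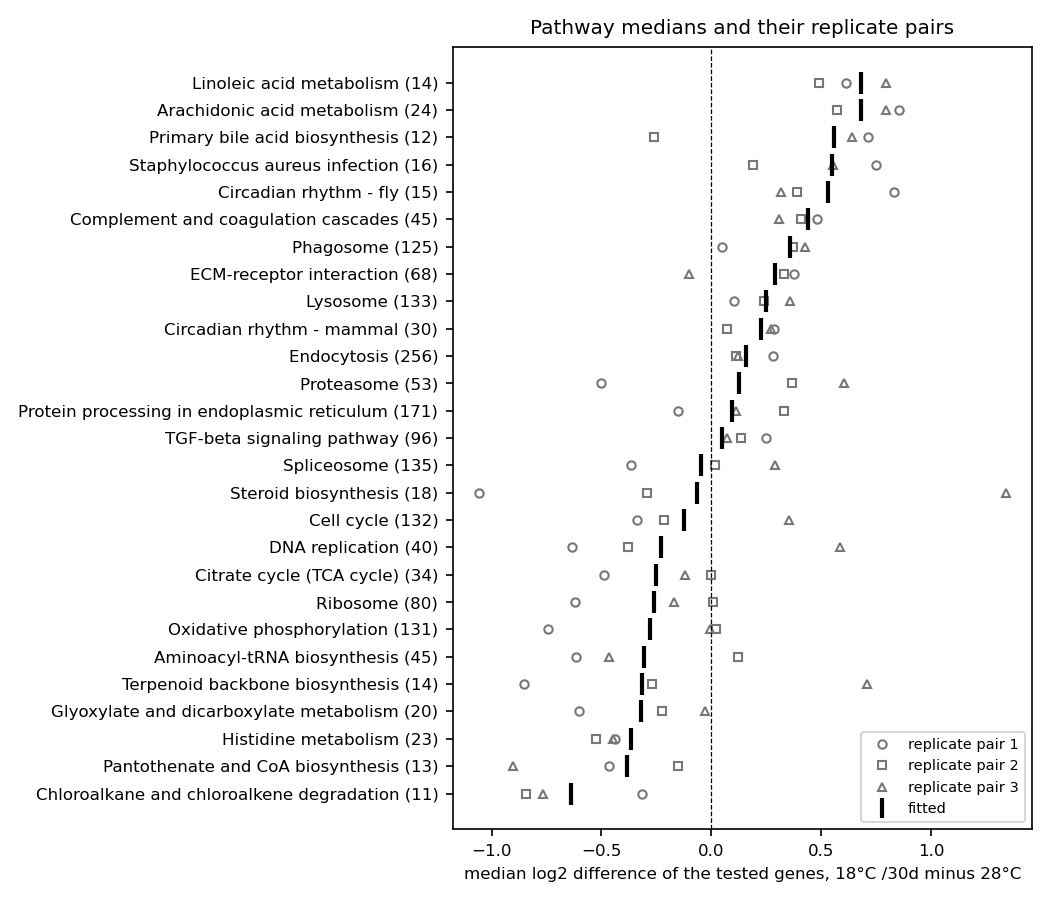
Median log2 difference at 18°C /30d against 28°C of the tested genes of each described pathway (x axis; pathway names with their number of tested genes on the y axis), with a marker per replicate pair and a bar for the fitted median. Fitted medians run from -0.64 to 0.68, and for many pathways the replicate pairs lie on both sides of 0.

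Of 18 tested genes that the study singled out by name, 2 rose and none fell. Selenium-binding protein 1 (selenbp1), a sulfur compound oxidase gene, was at 81.3, 67.6 and 91.6 CPM at 28°C and 244, 262 and 258 CPM at 18°C /30d (log2 fold change 1.67 ± 0.20, adjusted p = 0.0252). GTP cyclohydrolase 1 (GCH1), which starts the synthesis of tetrahydrobiopterin, was at 0.675, 1.16 and 0.541 CPM at 28°C and 2.45, 4.23 and 3.03 CPM at 18°C /30d (log2 fold change 2.03 ± 0.34, adjusted p = 0.0366). The groups did not overlap in either gene, and GCH1 had a low level. The glutathione transferase gstk1 was at 44.0, 34.8 and 106 CPM at 28°C and 17.5, 20.3 and 25.4 CPM at 18°C /30d and lay just outside the threshold (log2 fold change -1.41 ± 0.27, adjusted p = 0.0507). The thioredoxin-interacting protein gene txnipa was at 936, 823 and 1491 CPM at 28°C and 1153, 1754 and 1427 CPM at 18°C /30d (log2 fold change 0.44 ± 0.25, adjusted p = 0.367), and the ATP synthase subunit gene atp5pf had a log2 fold change of -0.07 ± 0.25 (adjusted p = 0.908). Since the study chose these genes, their directions are not independent evidence.

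At 18°C /5d 25 genes were higher (0.127%) and 26 lower (0.133%) than at 28°C. The 200 genes that were higher at 30 days had a median log2 fold change of 1.57 at 5 days and 2.0 at 30 days, and the 97 lower genes had -1.35 at 5 days and -1.53 at 30 days. Both comparisons share the 28°C libraries, so these values are given side by side only. The direct test of 18°C /30d against 18°C /5d called 0 genes (0.0%) with edgeR, 496 genes had an unadjusted p under 0.05, and DESeq2 called 6. Some genes named above had unlike values at both times. The change of pah was 0.23 at 5 days and 2.23 at 30 days on the log2 scale, that of fstl1a 0.57 and 2.0, that of tfpi2 0.90 and 2.5, and that of pappa2 -0.62 and -2.26. For cry1a it was 1.78 and 1.87, for shox -1.90 and -1.89, and for adka -1.79 and -1.73. None of these genes passed the adjusted threshold in the direct test with edgeR.

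Promoter methylation was measured by MeDIP-seq, in which an antibody captures DNA fragments with methylated cytosines, in 1 pooled library per condition, so there is no test of it here. Of the 200 risen genes 68 had a promoter peak. A gene was counted if the RPM (reads scaled to the total of reads on peaks) of any of its promoter peaks differed at least 2-fold in the 30-day library. A gene with several peaks could thus count in both directions. Of the 68 genes, 9 (13.2%) had a higher peak and 12 (17.6%) a lower peak. Of the 97 fallen genes 27 had a promoter peak, with 8 higher (29.6%) and 7 lower (25.9%). Among genes not called 5843 had a promoter peak, and 17.3% were higher and 20.4% lower. The 27 fallen genes held 41 peaks, the 68 risen genes 84 and the 5843 other genes 7494. More peaks per gene raise both shares, so the shares of the fallen genes cannot be read as an excess. Over peaks, the median ratio of RPM + 1 was 1.03 for the risen genes, 1.03 for the fallen genes and 1.00 for the genes not called. Peaks held a median of 21 to 27 reads over both libraries, so single ratios carry a large counting error. For the risen and fallen genes, each peak held 0 or at least 5 reads in a library. In all 12 risen genes with a lower peak, that peak was at 0 reads at 18°C /30d. Most of the higher peaks were at 0 reads at 28°C. A value of 0 may stand for a peak not called in that library, which was not tested. The shares may thus count the presence of peaks.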

How the data were processed

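RNA-seq counts per Ensembl gene were taken as deposited by the authors, without normalization, and so were the deposited RPKM values, which were used only for levels per gene length. The sources used here give no aligner, counting rule or strand setting for RNA, so reads of near copies and of overlapping genes cannot be told apart. The submitters' processing notes name Bowtie2, bedtools and danRer7. Fold changes, ratios and p-values of the authors' own comparisons were not used, nor were 13 further columns of per-sample values. For MeDIP-seq, the authors deposited read counts on merged peaks, from which RPM was computed over the reads on peaks (2952954 at 28°C and 2406158 at 18°C /30d) and compared as the ratio of RPM + 1.

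Counts were tested with edgeR 4.0.16 in R 4.3.3 (TMM, filterByExpr, quasi-likelihood F-test, Benjamini-Hochberg adjustment over 19622 genes, threshold 0.05), with the 9 RNA libraries in one fit and condition and replicate number as terms. Fold changes are log2 values ± SE from this fit with 3 libraries per condition, and library values are counts scaled by TMM library size (CPM) in the order of replicates 1, 2 and 3. The filter asked for enough reads in at least 3 of the 9 libraries, of any condition. Genes of few reads at 28°C could thus pass it through cold libraries, as tyrp1b, lft2, cyp1c1 and ccl19a.1 did. Their calls are descriptions. The pairing comes from the numbers in the sample titles. After the condition means were removed, same-numbered 28°C and 18°C /30d libraries correlated across genes at 0.27, 0.38 and 0.67, and replicate 1 at 28°C correlated more with cold replicate 2 (0.51) than with its own number. DESeq2 1.42.0, other normalizations, no filter, other terms and leaving out libraries were the alternatives. The code was tested on simulated data with 200 changed genes.

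Pathway and GO annotation came from the gene table (6066 and 19846 of 32677 genes). Symbols were matched for 23393 genes, 12704 by Ensembl ID and 10689 by the table's NCBI best hit at 95% identity or more. Lists and categories are described by counts and medians, with no set test. Listed categories had at least 8 tested genes, and the 5 highest and 5 lowest medians are from pathways with at least 10 and GO categories with at least 15 tested genes. Named genes are the 15 largest rises and 15 largest falls among 148 called genes with a symbol, no overlap and a mean above the median, up to 5 called members of each list and described pathway, the genes that define a list, and those the study singled out by name, which include some it did not follow by qPCR. Members of gene families and genes in the closing section were chosen after values were seen. The genes, lists and tests were chosen with earlier results of these data known. Promoter motifs were planned and not run, since no genome of the build used was at hand. The values of 3 genes that meet these rules are not reported here.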

Additional observations from a re-analysis of the deposited data

How the results depend on the processing

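With the replicate block 297 genes were called, 200 higher and 97 lower, and without the block 12, 8 higher and 4 lower, although 2679 genes still had an unadjusted p under 0.05. A batch term of 2 levels in place of the block gave 470 (317 and 153), the 6 libraries alone 35 (22 and 13), total counts only 194 (127 higher), no filter 150 lower, and DESeq2 with the block 1760 (1093 and 667). Leaving out a replicate number or 1 library gave 0 to 77 calls, 0 to 51 higher and 0 to 26 lower by edgeR, with fewer samples in the fit. The calls of 0 came without replicate 1 (2588 genes at an unadjusted p under 0.05) and without replicate 2 (2475). The cause of the other differences was not tested. Of the 297 genes 12 were still called without the block, 274 with the 2-level batch term, 32 in the 6 libraries alone, 183 with total counts, 62 without 28°C replicate 3 and 297 with DESeq2. None changed sign in any of the 17 alternatives that tested it, which was likely from the start, since all 3 replicate pairs of each gene shared its direction. Between 18°C /30d and 18°C /5d edgeR called 0 genes (496 at an unadjusted p under 0.05) and DESeq2 called 6. Without 28°C replicate 3, an alternative chosen after seeing the data, the medians of 21 of 188 categories, lists and families moved by more than the spread of their replicate pairs. Some lists described above moved by less than that spread. Their medians went from 0.27 to 0.11 for fatty acid synthesis and from 0.39 to 0.61 for vesicle release genes. For chromatin and lamina genes the median went from -0.21 to -0.39. For antioxidant genes it went from 0.10 to 0.02, and for the unfolded protein response from -0.05 to 0.01. Of 184 genes chosen by the naming rules or for the text, 129 lost the call without the block, 45 with total counts, 10 with upper-quartile scaling and 99 without 28°C replicate 3, and DESeq2 added 8. Upper-quartile scaling and a 2-fold minimum moved none of the counts over all genes by over 1.5 times, but with upper-quartile scaling the falls of the antioxidant list went from 2 to 1 and of the endothelium list from 1 to 0, and the minimum was not applied to lists. Depth was lowest in replicate 3, at 21407769 to 22504969 counts per library against 37509447 or more in the others, so genes of few reads are least certain there.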

Other observations

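The genes below were picked after values were seen, and the annotated groups nearest to them are given beside them. Of all genes tested 1.02% were higher and 0.494% lower. None of 60 tested genes of the GO category immune response was called, and 1 of 83 in the Toll-like receptor signaling pathway rose. Single genes known from innate immunity moved in both directions. The pentraxin genes PTX3 and apcs and the interferon-inducible gene ifi27.8 fell, with log2 fold changes of -3.56, -1.69 and -1.51. Among those that rose were IRAK3, nfkbiz and ccl19a.1. IRAK3, which encodes a brake on Toll-like receptor signalling, was at 1.12, 0.945 and 0.749 CPM at 28°C and 5.52, 5.21 and 4.99 CPM at 18°C /30d (log2 fold change 2.48 ± 0.28, adjusted p = 0.0239). The NF-κB regulator nfkbiz was at 6.26, 8.03 and 7.07 CPM at 28°C and 23.7, 25.8 and 14.5 CPM at 18°C /30d (log2 fold change 1.54 ± 0.24, adjusted p = 0.0334), and the chemokine gene ccl19a.1 was at 0.0519, 0.0472 and 0.0832 CPM at 28°C and 0.789, 1.41 and 0.981 CPM at 18°C /30d (log2 fold change 4.09 ± 0.56, adjusted p = 0.0272). In IRAK3, nfkbiz and ccl19a.1 the groups were apart. For ccl19a.1 this is a description, since it could not have entered the test without cold libraries. The annexin gene anxa1b, linked to the end of inflammation, rose 3.56-fold and the serglycin gene srgn, a proteoglycan of secretory granules, rose 3.70-fold. Blood cell markers summed to 3.33 to 20.8 CPM at 28°C and 3.03 to 26.9 CPM at 18°C /30d, with no member called.

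In the GO category transmembrane transport 3 genes rose (slc8a4a, trpc6a and slc9a7) and 1 fell (sfxn2) of 353, and in ion transport 2 rose and 3 fell of 161. Single carrier genes outside these categories' calls rose too. The phosphate carrier slc20a1a was at 0.182, 0.213 and 0.333 CPM at 28°C and 1.66, 0.781 and 3.37 CPM at 18°C /30d (log2 fold change 2.80 ± 0.48, adjusted p = 0.0392). The creatine carrier slc6a8 was at 1.66, 2.29 and 5.33 CPM at 28°C and 14.5, 7.53 and 36.7 CPM at 18°C /30d (log2 fold change 2.45 ± 0.45, adjusted p = 0.0443). Among solute carrier genes the sodium/calcium exchanger slc8a4a rose 6.72-fold, the sodium bicarbonate carrier slc4a5a 3.94-fold and the sodium/proton exchanger slc9a7 2.88-fold.

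Of annotated RNA groups, the spliceosome had 1 higher and 1 lower gene of 135, RNA transport 1 and 2 of 148, the mRNA surveillance pathway 1 higher of 80 and mRNA processing no call of 33. Single genes that act on RNA had these values. The microprocessor gene dgcr8, needed for microRNA processing, was at 409, 626 and 608 CPM at 28°C and 1103, 949 and 1517 CPM at 18°C /30d (log2 fold change 1.11 ± 0.21, adjusted p = 0.0489). The 3 poly(A)-binding protein 1-like genes ENSDARG00000069362, ENSDARG00000069365 and ENSDARG00000091545 rose 2.49-fold, 2.2-fold and 2.53-fold, and they are near copies that may share reads. The helicase gene ddx39b, of mRNA export, rose 3.28-fold. The translation initiation gene eif3eb fell 2.02-fold (log2 fold change -1.02 ± 0.18, adjusted p = 0.0408), and nelfa, a subunit gene of the negative elongation factor, fell 3.03-fold (log2 fold change -1.60 ± 0.30, adjusted p = 0.0465).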
